A study of Mus musculus with 74 samples.

Results

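The genes described here are the 6 cyclin-dependent kinase inhibitors Cdkn1a, Cdkn1b, Cdkn2a, Cdkn2b, Cdkn2c and Cdkn2d, with the p53 gene Trp53 and its regulator Mdm2. They were taken by symbol, 8 of the 49480 gene symbols in the count table, and all 8 were found. RNA was measured by Smart-seq2, a full-length cDNA method for small cell numbers, in 74 libraries of 1000 twice-sorted cells each. The mice were C57BL/6J, aged 12 or 3 months, and all carried MC38 colon carcinoma cells implanted under the skin, with cells taken on day 10. Spleen libraries carry the same treatment label, and no tumor-free group was analysed here.

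Macrophages were sorted as CD45+ CD11b+ F4/80+, dendritic cells as CD45+ CD11b+ CD11c+ MHCII+, regulatory T cells as CD45+ TCRb+ CD4+ CD25+, conventional CD4 T cells as CD4+ CD25- and CD8 T cells as CD45+ TCRb+ CD8+. Each type was taken from tumor and spleen at both ages, which makes 20 groups. Most groups held 4 libraries. Tumor dendritic cells of 12 months, spleen dendritic cells of either age and spleen CD4 T cells of 3 months had 3, and tumor CD4 T cells of 3 months had 2. The sex label was male for 4 libraries, the first replicate in every dendritic cell group, and female for the other 70. No label says that libraries of a group came from separate animals, so p-values measure only the spread between libraries, which may be technical.

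Cyclin-dependent kinases drive cells through the division cycle by phosphorylating the retinoblastoma protein. The proteins of the INK4 family (Cdkn2a, Cdkn2b, Cdkn2c, Cdkn2d) bind CDK4 and CDK6, and those of the CIP/KIP family (Cdkn1a, Cdkn1b) act on cyclin-CDK complexes more broadly. Cdkn2a also encodes p19ARF from another reading frame, which restrains Mdm2, the ligase that marks p53 for degradation. The p53 protein in turn activates both Cdkn1a and Mdm2. Transcripts of Cdkn2a and Cdkn1a are widely used as markers of senescent cells, and Cdkn1b and Cdkn2d are known for keeping resting lymphocytes out of cycle.

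Library totals ran from 1652812 to 9115858 counts (median 4679409.5), and 16576 to 24475 symbols had a count. Foxp3 stood at 869 to 1310 CPM (counts scaled to a common library total) in regulatory T cells against 21.2 to 354 in conventional CD4 T cells. Cd8a stood at 830 to 2350 CPM in CD8 T cells, and Itgam, the CD11b gene, at 320 to 1150 CPM in macrophages against 54.4 to 305 CPM in dendritic cells. The ranges of the 2 myeloid sorts overlapped for Itgax, the CD11c gene (350 to 690 CPM in dendritic cells, 79.1 to 449 CPM in macrophages), and for Adgre1, the F4/80 gene (240 to 1100 CPM in macrophages, 31.8 to 389 CPM in dendritic cells). Spleen dendritic cell replicates 3 and 4 at 3 months carry an age tag of 12 months that goes against their titles, and the titles were followed. Spleen CD4 replicates 1 and 4 at 3 months had 8.64% and 11.7% of counts in ribosomal protein genes, against 3.8% to 4.52% in the other spleen CD4 libraries. Replicate 2 of tumor dendritic cells at each age was rich in macrophage transcripts.

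On the mm10 build, with GENCODE M21 positions, Cdkn1a lies at chr17:29090976-29100727 on the plus strand and Cdkn1b at chr6:134920401-134925513 on the plus strand. Cdkn2a (chr4:89274471-89294653) and Cdkn2b (chr4:89306299-89311039) are neighbours on the minus strand. Cdkn2c (chr4:109660876-109667189), Cdkn2d (chr9:21288410-21291407) and Mdm2 (chr10:117688875-117710758) are also on the minus strand, and Trp53 (chr11:69580359-69591873) is on the plus strand. Counts are over all exons of a gene. The p16INK4a and p19ARF transcripts of Cdkn2a share exons and cannot be told apart here. Of the 8 genes, Cdkn1a overlaps exons of another annotated gene, AC167363.2 on the opposite strand, over 273 bases or 7.68% of its exon length, and the strand setting of the counting is not given in the sources used here.

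The promoter windows of Cdkn1a and Mdm2, both textbook p53 targets, are printed because their transcripts are set against Trp53 throughout. Each window covers the 250 bases before a RefSeq start (GRCm38.p6), and capitals mark matches on either strand to the p53-binding decamer consensus or to the GC box GGGCGG. The upstream Cdkn1a start (chr17:29090729-29090978, plus strand) had 2 decamer matches, which began 73 and 51 bases before the start. The downstream Cdkn1a start (chr17:29093519-29093768, plus strand) had 2 GC boxes, at 104 and 46 bases before it. The Mdm2 window (chr10:117710759-117711008, minus strand) had a decamer match at 186 bases and GC boxes at 104 and 88 bases, 1 of them on the other strand.
Cdkn1a upstream start: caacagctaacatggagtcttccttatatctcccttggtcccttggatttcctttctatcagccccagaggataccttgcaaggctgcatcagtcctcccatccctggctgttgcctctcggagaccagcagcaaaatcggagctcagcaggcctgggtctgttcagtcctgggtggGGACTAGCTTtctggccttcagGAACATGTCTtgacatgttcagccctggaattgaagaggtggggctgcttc
Cdkn1a downstream start: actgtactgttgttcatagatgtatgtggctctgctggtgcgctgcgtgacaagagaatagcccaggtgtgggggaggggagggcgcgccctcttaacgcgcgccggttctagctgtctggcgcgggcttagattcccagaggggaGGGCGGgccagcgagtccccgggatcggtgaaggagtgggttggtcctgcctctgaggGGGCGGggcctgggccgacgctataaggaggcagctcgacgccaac
Mdm2 start: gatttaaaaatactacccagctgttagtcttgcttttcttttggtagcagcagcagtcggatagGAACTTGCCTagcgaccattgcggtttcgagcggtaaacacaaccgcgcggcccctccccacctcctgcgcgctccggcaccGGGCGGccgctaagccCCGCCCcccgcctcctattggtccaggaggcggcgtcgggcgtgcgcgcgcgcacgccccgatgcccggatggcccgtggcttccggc
Over the 11 windows of the 8 genes, the decamer was present in 4, those of Cdkn1a (upstream), Cdkn2d, Trp53 and Mdm2. It was present in 7.13% of all 32851 promoter windows of the same length. The GC box was present in 6 of the 11 windows and in 32.7% of all promoters. The E2F motif TTTNGCGC was in 1 window, of a Cdkn2a start (1.13% of all promoters), and the TATA box TATAAA in 1, of Trp53 (12.4%). The AP-1 motif TGANTCA (6.75%) and the E-box CACGTG (6.02%) were in 0. Matches in capitals above do not overlap, and a match of letters is not a measured binding site.

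Levels below are CPM over the library total, as mean ± SD. Log2 fold changes come from edgeR quasi-likelihood models with TMM scaling, fitted to all genes that passed the low-count filter, with Benjamini-Hochberg adjusted p-values over those genes and a threshold of 0.05. Each library pools 1000 cells, so fewer cells of a type that expresses a gene and less RNA per cell cannot be told apart.

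No inhibitor, nor Trp53 or Mdm2, changed with age in any sort by the test used. Of 80 combinations of gene and age comparison, 63 were tested and 0 passed in either direction, and the count was also 0 with the DESeq2 Wald test in each of the 10 comparisons. The 17 untested combinations had too few counts and were all 10 of Cdkn2a, 6 of Cdkn2b and that of Cdkn1a in spleen CD8 T cells. Among all genes tested, the share called by age was 3.92% in spleen CD4 T cells, 1.02% in spleen CD8 T cells, 0.593% in spleen dendritic cells, 0.0489% in spleen regulatory T cells and 0.0311% in tumor CD4 T cells. It was 0% in spleen macrophages and in tumor macrophages, dendritic cells, regulatory T cells and CD8 T cells. At an unadjusted p under 0.05 there were 6 of the 63 values, 2 of them in spleen macrophages and 1 each in spleen CD4 T cells, spleen dendritic cells, tumor dendritic cells and tumor CD8 T cells. Over the 10 comparisons together 7.15% of all tested gene values reached that p. The 63 log2 fold changes of 12 over 3 months ran from -0.96 to 2.12 with a median of 0.01, 32 of them positive and 28 negative.

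**Figure D1:**
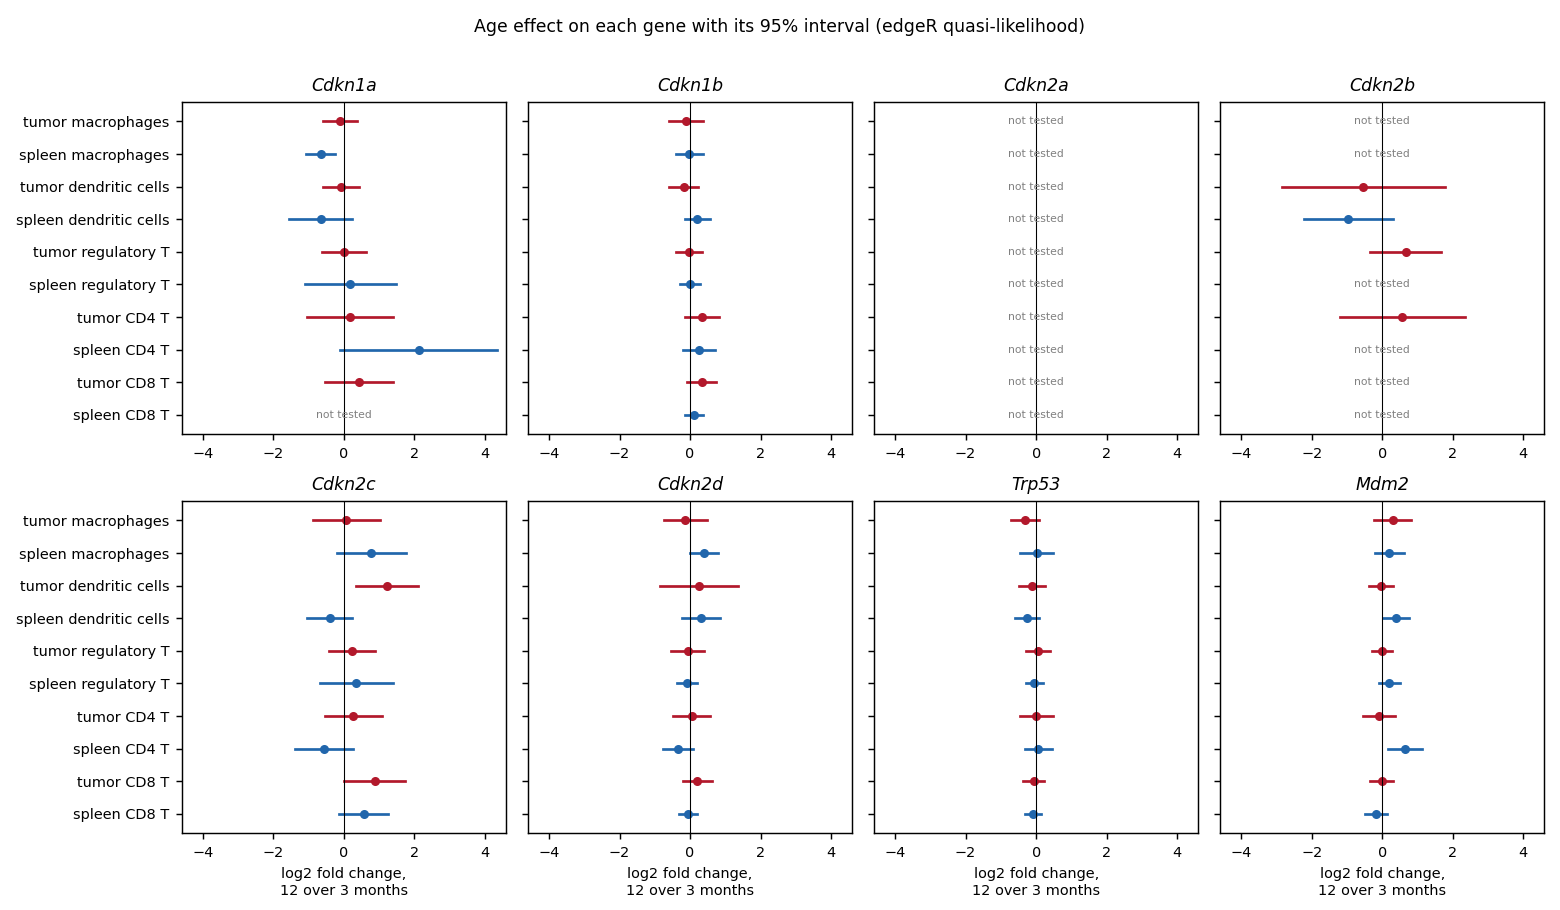
Log2 fold change of 12 over 3 months (x axis) for each gene, by cell type and tissue (rows, tumor in red and spleen in blue); points are edgeR estimates and bars their 95% intervals. Most intervals include 0, and no value passed the adjusted threshold; combinations with too few counts are written as not tested.

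In 4 of the 63 tested combinations the libraries of the 2 ages did not overlap, and these were Cdkn1a in spleen macrophages, Cdkn2c in tumor dendritic cells, and Mdm2 in spleen CD4 T cells and in spleen dendritic cells. The share of all tested genes without overlap was 3.42% in spleen macrophages, 3.31% in tumor dendritic cells, 14.6% in spleen CD4 T cells and 17% in spleen dendritic cells. In the 6 sorts with no such member it was 3.72% (tumor macrophages), 3.4% (spleen regulatory T cells), 2.6% (tumor regulatory T cells), 12.7% (tumor CD4 T cells), 4.89% (spleen CD8 T cells) and 2.36% (tumor CD8 T cells). The narrowest intervals belonged to the abundant genes. The plot of age effects shows Trp53 and Cdkn1b close to 0 in all 10 comparisons and wide bars for Cdkn2b and for Cdkn1a in spleen T cells.

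Cdkn1a, which encodes the p21 inhibitor induced by p53, was lower in spleen macrophages of 12-month mice without passing the test. The 12-month libraries had 164, 94.9, 165 and 179 CPM, against 274, 223, 262 and 232 CPM in the 3-month libraries. All 4 older libraries lay below all 4 younger ones. The mean was 151 ± 37.9 CPM in older and 248 ± 24.2 CPM in younger mice, and the fitted difference was -0.66 on the log2 scale (SE 0.19, 95% interval -1.07 to -0.26, adjusted p = 0.698). Neutrophil markers moved alongside: the 10 listed genes summed to 9558 to 38950 CPM in the 12-month libraries and 3869 to 13510 CPM in the 3-month libraries. The sum of 8 macrophage markers was 2839 to 3873 CPM in the 12-month libraries, against 3433 to 4470 CPM in the 3-month ones. The part of these cells in the difference was not tested.

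In tumor macrophages Cdkn1a had 770, 603, 515 and 537 CPM in older mice, against 522, 504, 602 and 897 CPM in younger mice. The groups overlapped almost fully, with a log2 fold change of -0.11 (SE 0.22). Spleen dendritic cells had 18.1, 14.8 and 12.3 CPM at 12 months, against 14.9, 43.4 and 17.5 CPM at 3 months. A single 3-month library, replicate 3, which is 1 of the pair with conflicting age labels, was higher than the rest. Tumor dendritic cells of 12 months had 590, 466 and 892 CPM, and those of 3 months 593, 774, 666 and 730 CPM, again overlapping.

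In T cells the Cdkn1a values of spleen were low and uneven. Spleen CD4 T cells had 7.8, 1.5, 25.4 and 0.735 CPM at 12 months, against 2.21, 3.66 and 0 CPM at 3 months. Replicate 3 at 12 months was the highest and the groups overlapped (log2 fold change 2.12, SE 1.06, 95% interval -0.11 to 4.34, adjusted p = 0.282). Spleen CD8 T cells had 3.57, 1.29, 1.88 and 0.47 CPM at 12 months, against 0, 0, 0.893 and 0.244 CPM at 3 months. Those groups overlapped through 1 library of each age, and the gene was not tested there because its counts were under the filter. Without the filter the log2 fold change was 2.53 with an adjusted p of 0.562. Spleen regulatory T cells averaged 15.7 ± 10.9 CPM in older and 13.5 ± 6.95 CPM in younger mice (SD, n = 4 each). Tumor regulatory T cells averaged 127 ± 53.3 CPM in older and 127 ± 27.6 CPM in younger mice (n = 4 each). Tumor CD4 T cells averaged 117 ± 69 CPM at 12 months (n = 4), with 135 and 68.6 CPM in the libraries of 3 months. In none of these did the ages separate. Tumor CD8 T cells averaged 30 ± 13.3 CPM in older and 22.2 ± 11.9 CPM in younger mice (n = 4 each).

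Cdkn1b encodes p27, an inhibitor that resting T cells hold at high level and degrade on entry into cycle. Its age effects were among the smallest, with log2 fold changes from -0.18 to 0.34 over the 10 comparisons and 95% intervals within -0.61 to 0.83. Spleen CD8 T cells of 12 months had 141, 166, 135 and 173 CPM, and those of 3 months 144, 141, 144 and 144 CPM. The 3-month libraries lay within the range of the 12-month ones.

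Cdkn2a, the locus of p16INK4a and p19ARF, was almost absent. Over all 74 libraries it had 73 counts, in 25 libraries, and at most 11 in 1 library. Spleen dendritic cells were the only cell type and tissue with a count in every library, at 0.206, 1.77 and 0.976 CPM in older mice and 0.8, 0.684 and 0.772 CPM in younger mice. The 12-month values bracket the 3-month ones. The 8 spleen regulatory T cell libraries had 0 counts, which allows at most 0.0858 CPM over them (3 counts, counting error only). In none of the 10 age comparisons did Cdkn2a pass the low-count filter. Without the filter 9 gave a value, with adjusted p from 0.525 to 0.998. Tumor regulatory T cells had 0 counts in the 4 libraries of 12 months, against 0, 0, 0.834 and 0.483 CPM (6 counts) at 3 months. The 3-month mean was 2.32 times the limit of 3 counts over the 12-month group (0.142 CPM). That mean rests on 2 of 4 libraries and its own error is not counted, so no lower bound of the fold is given. Without the filter the adjusted p was 0.671. In spleen CD4 T cells the 6 counts of 12 months were in 1 of 4 libraries, against 0 at 3 months (adjusted p = 0.525 without the filter). The 12-month mean there was 1.04 times the limit of 3 counts over the 3-month group. Single libraries made up the levels of several groups, as in tumor CD4 T cells of 12 months, where replicate 2 had 4.24 CPM from 7 counts and the other libraries 0 to 0.508 CPM.

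Cdkn2b, which encodes p15 and lies beside Cdkn2a, had 866 counts in 61 libraries. Spleen CD4 T cells had 2.72, 1, 0.534 and 1.23 CPM at 12 months, or 24 counts in 4 of 4 libraries, and 0 counts in all 3 libraries of 3 months. The 12-month mean was 5.23 times the limit of 3 counts over the 3-month group (0.262 CPM), without counting the mean's own error. The counts were too few for the filter. Without the filter the adjusted p was 0.203, and it was 0.0488 when all 4 CD4 groups entered 1 fit, the lowest of the 3 settings that gave a value (up to 0.818). Spleen macrophages had 0.393, 0.192, 5.47 and 0.898 CPM at 12 months against 0.607, 0.215, 0 and 0.15 CPM at 3 months, and the groups overlapped. Spleen dendritic cells averaged 5.87 ± 3.85 CPM in older and 9.99 ± 2.79 CPM in younger mice (n = 3 each), and the fitted log2 difference of -0.96 did not pass (SE 0.59, adjusted p = 0.553).

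Cdkn2c encodes p18, an INK4 protein known to restrain T cell expansion. Tumor dendritic cells had 8.15, 8.91 and 13.1 CPM at 12 months, against 3.97, 4.5, 2.9 and 5.68 CPM at 3 months. All 3 older libraries lay above all 4 younger ones, and the log2 fold change was 1.22 (SE 0.40, 95% interval 0.33 to 2.11, adjusted p = 1). Without the macrophage-rich library of each age it was 1.35 (adjusted p = 0.832). The macrophage marker sum in this sort was 2366 to 12020 CPM in the 12-month libraries, against 4089 to 10950 CPM in the 3-month ones. Tumor CD8 T cells had 11.3, 24.1, 20.3 and 35.2 CPM at 12 months, against 13.8, 21.1, 10.7 and 5.57 CPM at 3 months. These groups overlapped (log2 fold change 0.87, adjusted p = 1). Over the 10 comparisons the gene's log2 fold change was positive in 8 and negative in 2, and none passed.

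Cdkn2d encodes p19INK4d. Spleen macrophages of 12 months had 161, 167, 148 and 132 CPM, and those of 3 months 130, 140, 123 and 84.5 CPM. The groups overlapped at the edge (log2 fold change 0.41, adjusted p = 0.817). The other comparisons lay between -0.35 and 0.31.

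Trp53, the gene of p53 itself, passed no age test. The log2 fold changes were -0.31 to 0.06, 3 of them positive and 6 negative, and the 95% intervals stayed within -0.71 to 0.48. In spleen regulatory T cells, where the gene was highest, the 12-month libraries had 207, 212, 252 and 241 CPM and the 3-month libraries 229, 271, 207 and 227 CPM. The ages overlapped there, as they did in the other 9 comparisons.

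Mdm2, a target of p53 and its inhibitor, gave the lowest adjusted p of any member. Spleen CD4 T cells had 122, 85.7, 135 and 100 CPM at 12 months, against 57.2, 83.2 and 50.3 CPM at 3 months. All older libraries were above the younger ones, by a narrow margin at the closest pair. The mean was 111 ± 22 CPM in older and 63.6 ± 17.4 CPM in younger mice, and the log2 difference was 0.64 (SE 0.23, 95% interval 0.17 to 1.12, adjusted p = 0.115). The 2 lowest libraries, replicates 1 and 4 of 3 months, were those rich in ribosomal protein transcripts. Without them, which left only replicate 3 at 3 months, the log2 fold change was 0.35. Without replicate 3 of 3 months it was 0.82 (adjusted p = 0.00801), and these values are the ends of the range over 13 alternatives. Leaving out replicate 3 kept only the 2 ribosomal-rich libraries at 3 months. At that setting 2400 of all genes were called by age, against 460 with all libraries. Spleen dendritic cells had 94.2, 85.9 and 74.6 CPM at 12 months, against 72.3, 63.6 and 61.5 CPM at 3 months. These groups did not overlap either, and the log2 fold change was 0.39 (SE 0.17, 95% interval 0.03 to 0.75, adjusted p = 0.363). With the age tags in place of the titles only replicate 1, at 72.3 CPM, stayed at 3 months, and the log2 fold change was 0.44. The libraries at 63.6 and 61.5 CPM then counted as older, so the ages overlapped. The sum of 8 B cell markers was 2046 to 3139 CPM in the 12-month spleen dendritic cell libraries, against 501.2 to 1653 CPM in the 3-month ones. The macrophage marker Adgre1 was higher in older mice (237 against 111 CPM, edgeR adjusted p = 0.00654). Cd68 (179 against 275 CPM) and Csf1r (137 against 201 CPM) were lower without passing. The dendritic cell marker Cd209a was lower (188 against 374 CPM, adjusted p = 0.0262). The part of such cells in the difference was not tested.

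Whether age acted differently in tumor and spleen was tested by an interaction term within each cell type. Of 34 tested values 0 passed in edgeR and 0 in DESeq2, and 4 had an unadjusted p under 0.05, which are 2 in CD4 T cells and 1 each in dendritic and CD8 T cells. Among all genes the share called was 0.668% in CD4 T cells, 0.143% in CD8 T cells and 0% in macrophages, dendritic cells and regulatory T cells. Over the 5 interactions together 5.96% of all tested gene values had an unadjusted p under 0.05. The lowest adjusted p, 0.31, belonged to Cdkn2b in CD4 T cells and rests on the group with 0 counts. Cdkn2c in dendritic cells differed by 1.64 on the log2 scale (95% interval 0.64 to 2.64, adjusted p = 0.796), with the age effect positive in tumor and negative in spleen.

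The larger differences were between tissues. Tumor was compared with spleen over both ages within each cell type, and 26 of 34 tested values passed, 15 higher and 11 lower in tumor. This count has to be read against the background, since 51.7% of all tested genes were called in macrophages, 47.1% in dendritic cells, 53.5% in regulatory T cells, 27.2% in CD4 T cells and 42.1% in CD8 T cells. The members called were 6 of 7 in macrophages, 6 of 7 in dendritic cells, 5 of 7 in regulatory T cells, 5 of 7 in CD4 T cells and 4 of 6 in CD8 T cells. By direction, 3 members rose and 3 fell in macrophages (23.9% and 27.8% of all genes), 3 rose and 3 fell in dendritic cells (24.4% and 22.7%), and 4 rose and 1 fell in regulatory T cells (25.9% and 27.6%). In CD4 T cells 3 rose and 2 fell (16% and 11.2% of all genes), and in CD8 T cells 2 rose and 2 fell (22.5% and 19.6%). In 15 values the libraries of tumor and spleen did not overlap. These were 3 in macrophages, 3 in dendritic cells, 4 in regulatory T cells, 3 in CD4 T cells and 2 in CD8 T cells. The background of such genes was 22.3% in macrophages, 26.9% in dendritic cells, 24.5% in regulatory T cells, 10.2% in CD4 T cells and 13.9% in CD8 T cells. In all 26 called values the CPM means differed in the direction of the fitted fold change.

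**Figure D2:**
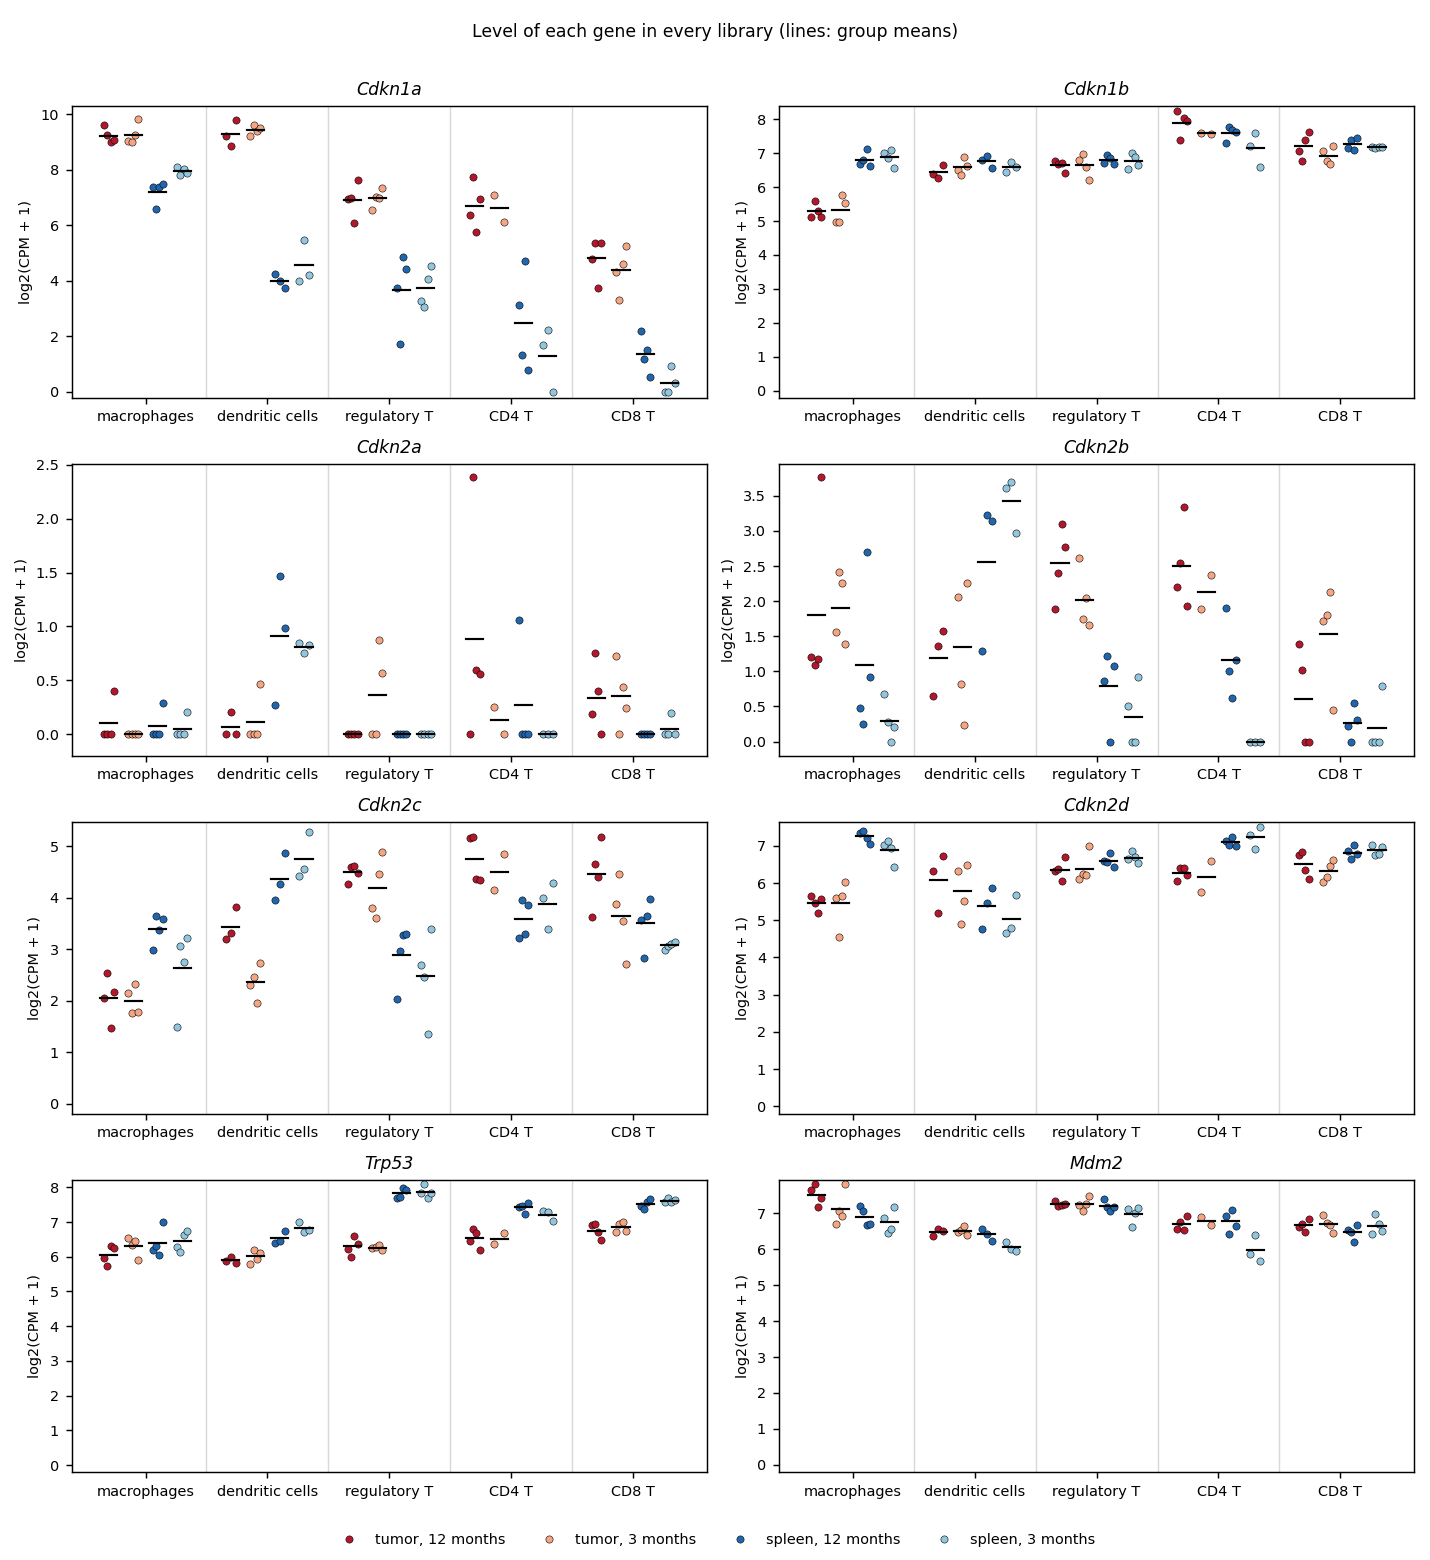
Level of each gene in every library as log2(CPM + 1) (y axis), by cell type (x axis), with tumor at 12 months, tumor at 3 months, spleen at 12 months and spleen at 3 months from left to right in each type; each point is a library and each line a group mean. Cdkn1a separates tumor from spleen in all 5 types, while the ages overlap in most panels.

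Cdkn1a was the member with the widest span and rose in tumor in all 5 cell types, with no overlap between the libraries of tumor and spleen. Dendritic cells had 466 to 892 CPM in tumor (median 666, n = 7) and 12.3 to 43.4 CPM in spleen (median 16.2, n = 6), a rise of 5.44 on the log2 scale (SE 0.29, adjusted p = 2.78e-08) or 43.4-fold. CD8 T cells had 8.85 to 40.4 CPM in tumor (median 25.2, n = 8) and 0 to 3.57 CPM in spleen (median 0.679, n = 8), and the log2 fold change was 5.10 (adjusted p = 2.65e-08). The lowest tumor library of each of these types was above the highest spleen library. CD4 T cells averaged 112 ± 57.9 CPM in tumor (n = 6) and 5.9 ± 8.96 CPM in spleen (n = 7), and the log2 rise was 4.79 (SE 0.81, adjusted p = 0.00178). Regulatory T cells averaged 127 ± 39.3 CPM in tumor and 14.6 ± 8.53 CPM in spleen (n = 8 each), and the log2 rise was 3.38 (SE 0.37, adjusted p = 1.42e-06). Macrophages had the smallest of the 5 fold changes and the highest spleen level, at 619 ± 142 CPM in tumor and 199 ± 59.6 CPM in spleen (n = 8 each, log2 fold change 1.90, adjusted p = 4.8e-09). Under the alternatives tried the 5 log2 fold changes ran from 1.80 to 6.05 and the highest adjusted p was 0.0108.

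Markers of other cells are given beside this result. The macrophage marker sum was 6.106 to 51.84 CPM over the tumor T cell sorts, against 8828 to 16120 CPM in tumor macrophages, where Cdkn1a was 504 to 897 CPM. In dendritic cells the same sum was 2366 to 12020 CPM for tumor, against 550.9 to 742.5 CPM for spleen. The sum of epithelial tumor cell markers there was 167.7 to 464.7 CPM for tumor, against 12.87 to 38.61 CPM for spleen. Most of that tumor sum was Cdh1, at 240 ± 72.9 CPM, against 10.9 ± 9.62 CPM in spleen. Epcam had 53.6 ± 40.4 CPM in tumor, against 11.6 ± 3.43 CPM in spleen. A sum led by Cdh1 need not reflect tumor cells. In macrophages the neutrophil marker sum was 14.65 to 781.6 CPM for tumor, against 3869 to 38950 CPM for spleen. In the CD25- CD4 sort Foxp3, which defines regulatory T cells, averaged 194 ± 96.3 CPM in tumor and 54.8 ± 23.9 CPM in spleen. The B cell marker sum was lower in tumor in both myeloid types. It was 6.759 to 33.32 CPM in tumor macrophages, against 846.1 to 2965 CPM in spleen ones, and 11.27 to 35.32 CPM in tumor dendritic cells, against 501.2 to 3139 CPM in spleen ones. Plasma cell markers summed to 33.49 to 70.49 CPM in dendritic cells of tumor, against 82.74 to 565.3 CPM in those of spleen. In regulatory T cells they summed to 195.4 to 285 CPM for tumor, against 5.212 to 73.28 CPM for spleen. Most of that tumor sum was Prdm1, at 241 ± 26.4 CPM, against 13.5 ± 8.02 CPM in spleen, so it need not reflect plasma cells. The part of other cells in the differences between the tissues was not tested.

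Cdkn1b fell in tumor macrophages, to 39.2 ± 8.75 CPM against 115 ± 17.5 CPM in spleen (n = 8 each, log2 fold change -1.33, adjusted p = 3.71e-07). The tumor libraries lay between 30.3 and 53.9 CPM and the spleen libraries between 93.8 and 139 CPM, with no overlap. In the other 4 types it did not pass, and the log2 fold changes lay between -0.05 and 0.41. In CD4 T cells it was 0.41 with an adjusted p of 0.0628. The signs of the small values in dendritic and regulatory T cells depend on the scaling, since the CPM means were lower in tumor and the fitted fold changes positive.

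Among the INK4 genes, Cdkn2c rose in tumor in the 3 T cell types and fell in the 2 myeloid types. Tumor regulatory T cells had 11.2 to 28.7 CPM, against 1.56 to 9.45 CPM in spleen ones, with no overlap (log2 fold change 1.97, adjusted p = 7.61e-06). The log2 fold change was 0.98 in CD4 T cells (adjusted p = 0.00951) and 1.00 in CD8 T cells (adjusted p = 0.00366). Tumor dendritic cells had 2.9 to 13.1 CPM, against 14.6 to 37.8 CPM in spleen ones, again with no overlap (log2 fold change -1.51, adjusted p = 0.000107). Macrophages averaged 3.18 ± 0.976 CPM in tumor and 7.74 ± 3.12 CPM in spleen (log2 fold change -1.02, adjusted p = 0.0126). This last call was lost without the low-count filter (adjusted p = 0.0517), and that in CD4 T cells without replicate 3 of the 3-month tumor group (adjusted p = 0.105). The sum of the 25 proliferation genes was 1922 to 5366 CPM in tumor regulatory T cells, against 1707 to 2587 CPM in their spleen libraries. In CD8 T cells it was 1274 to 2601 CPM for tumor, against 618.6 to 827.5 CPM for spleen, and the part of dividing cells was not tested.

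Cdkn2d went the other way in several types. It fell in tumor macrophages (44.6 ± 11.9 CPM in tumor and 136 ± 25.6 CPM in spleen, log2 fold change -1.38, adjusted p = 2.3e-06) and in tumor CD4 T cells (75.9 ± 15.2 CPM in tumor and 142 ± 20.8 CPM in spleen, log2 fold change -0.90, adjusted p = 0.000162), with no overlap in either. In CD8 T cells it was lower by a small margin (log2 fold change -0.33, adjusted p = 0.0226), and this call was lost without any 1 of 5 libraries (adjusted p up to 0.0715): replicate 3 of spleen at 12 months, replicate 4 of tumor at 12 months, replicate 1 of spleen at 3 months, and replicates 1 and 2 of tumor at 3 months. In dendritic cells it was higher in tumor, at 65.6 ± 29 CPM against 38.1 ± 14.3 CPM in spleen (log2 fold change 1.15, adjusted p = 0.0204). That call was lost without the filter (adjusted p = 0.0775) or without any 1 of 4 libraries: replicate 1 of spleen at 12 months, replicate 3 of tumor at 12 months, and replicates 1 and 3 of spleen at 3 months. In regulatory T cells the log2 fold change was 0 (95% interval -0.28 to 0.28).

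Cdkn2b rose in tumor in 3 types. Tumor regulatory T cells had 2.17 to 7.57 CPM, against 0 to 1.33 CPM in spleen ones, with no overlap (log2 fold change 3.05, adjusted p = 7.02e-05). The log2 fold change was 4.3 in CD4 T cells (adjusted p = 0.000697) and 2.64 in macrophages (adjusted p = 0.0061), where the libraries overlapped. In dendritic cells the gene fell, with 0.181 to 3.79 CPM in tumor libraries, against 1.44 to 12 CPM in spleen libraries (log2 fold change -1.87, adjusted p = 0.0181). That call was lost with the replicate number as a block (adjusted p = 0.0603) and without replicate 1 of the 3-month spleen group (adjusted p = 0.0623). Cdkn2a was not tested in any type. Its mean was 0.0764 CPM in tumor dendritic cells and 0.868 CPM in spleen dendritic cells, and 0.901 CPM in tumor CD4 T cells against 0.156 CPM in spleen CD4 T cells. In CD4 T cells 1 library set each mean: replicate 2 of 12 months held 7 of the 11 tumor counts, and replicate 1 of 12 months all 6 spleen counts. Without these 2 libraries the means were 0.234 CPM in tumor and 0 CPM in spleen.

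**Figure D3:**
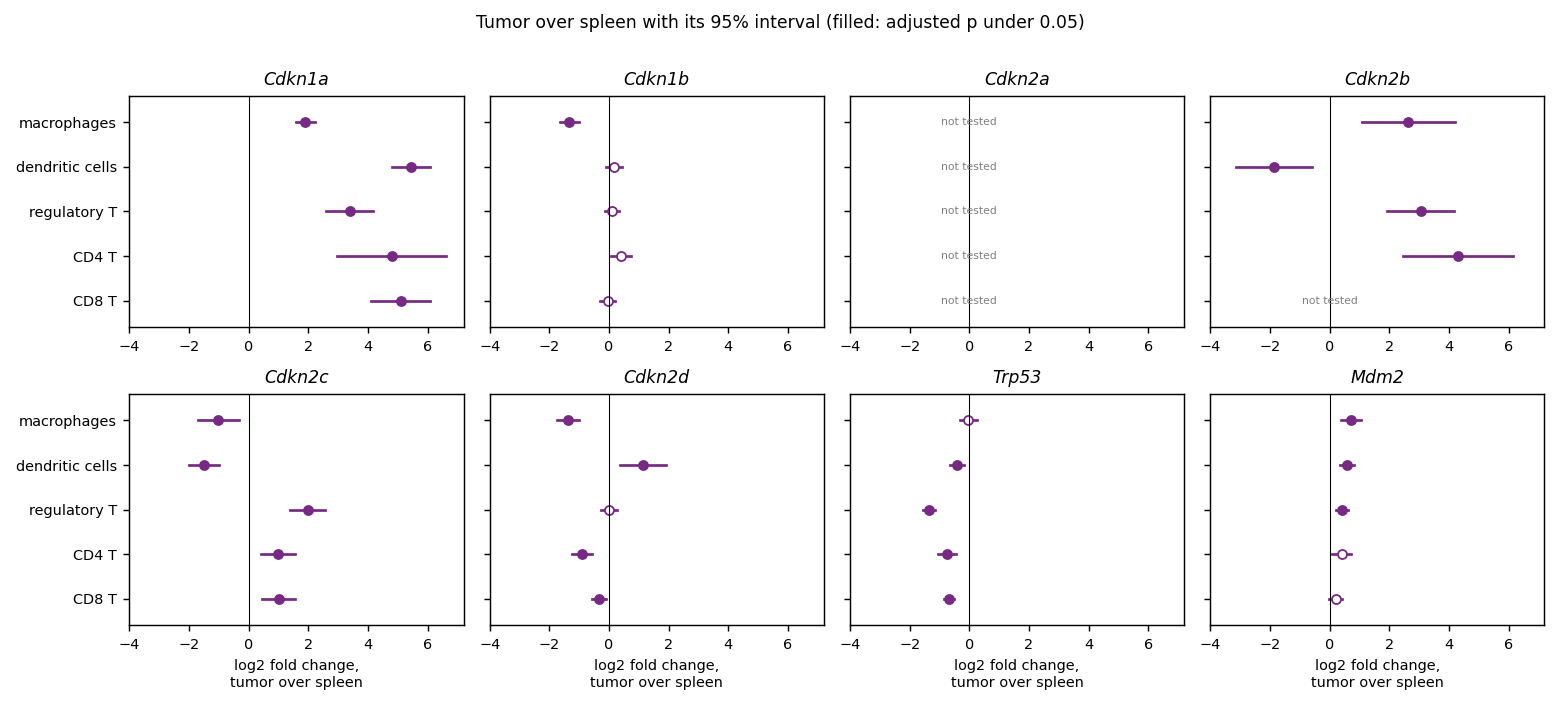
Log2 fold change of tumor over spleen (x axis) for each gene in the 5 cell types (rows); points are edgeR estimates, bars their 95% intervals, and filled points have an adjusted p under 0.05. Cdkn1a is to the right of 0 in all 5 types, and Trp53 is to the left of 0 with a filled point in 4 of 5.

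Trp53 fell in tumor in 4 of 5 types, with no overlap between the libraries in any of the 4. Regulatory T cells had 62.6 to 95.9 CPM in tumor (median 75.5) and 207 to 271 CPM in spleen (median 228), a log2 difference of -1.35 (SE 0.09, adjusted p = 1.64e-10). The highest tumor library held less than the lowest spleen library by more than the range within either tissue. The log2 fold change was -0.75 in CD4 T cells (92.2 ± 14.1 CPM in tumor, 161 ± 19.8 CPM in spleen, adjusted p = 0.000255), -0.68 in CD8 T cells (111 ± 13.4 CPM in tumor, 189 ± 12.8 CPM in spleen, adjusted p = 6.81e-07) and -0.41 in dendritic cells (61.7 ± 6.72 CPM in tumor, 102 ± 15.4 CPM in spleen, adjusted p = 0.00783). Macrophages did not pass, at 73.1 ± 14.1 CPM in tumor and 86.6 ± 21.6 CPM in spleen (log2 fold change -0.03, 95% interval -0.33 to 0.27).

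Mdm2 rose in tumor in macrophages (165 ± 46.9 CPM in tumor, 116 ± 22.7 CPM in spleen, log2 fold change 0.71, adjusted p = 0.00114), dendritic cells (89.5 ± 6.3 CPM in tumor, 75.4 ± 12.7 CPM in spleen, log2 fold change 0.59, adjusted p = 0.000397) and regulatory T cells (153 ± 12.3 CPM in tumor, 137 ± 19.5 CPM in spleen, log2 fold change 0.41, adjusted p = 0.00107). The libraries of tumor and spleen overlapped in all 3. In each of these 3 types the fitted fold change was larger than that of the CPM means, so its size depends on the TMM scaling. In CD4 T cells the log2 fold change was 0.40 (95% interval 0.07 to 0.72, adjusted p = 0.0668) and in CD8 T cells 0.20 (95% interval -0.02 to 0.42, adjusted p = 0.133). Against the span of Cdkn1a, from 0.284 to 691 CPM over the 20 group means, Mdm2 spanned 63.6 to 184 CPM.

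**Figure D4:**
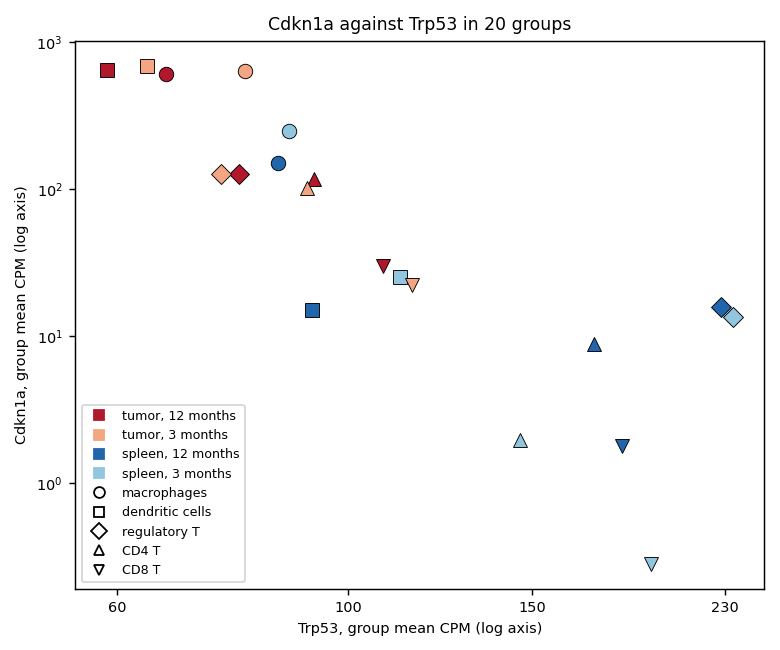
Mean Cdkn1a level against mean Trp53 level in the 20 groups, both in CPM on log axes; shapes are cell types and colours tissue and age. Groups with high Cdkn1a, tumor macrophages and dendritic cells, lie at the low end of Trp53, and spleen T cells lie at the high end with little Cdkn1a.

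Over the 20 group means of log2(CPM + 1), Cdkn1a and Trp53 had a Pearson r of -0.87, the strongest relation of any pair among the 8 genes. The plot of these means shows that cell type and tissue set most of the spread, and the points share libraries and cell types, so this is a description only. Cdkn2b and Cdkn2d had an r of -0.75, Cdkn2a and Cdkn2b 0.66, and Cdkn1a and Mdm2 0.41.

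Ranked by group mean, Cdkn1a was highest in tumor dendritic cells of 3 months (691 ± 78.9 CPM), then tumor dendritic cells of 12 months (649 ± 219), tumor macrophages of 3 months (631 ± 182) and tumor macrophages of 12 months (606 ± 115). These 4 neighbours overlapped. After them came spleen macrophages of 3 months (248 ± 24.2 CPM), set apart from both neighbours in the order, and then spleen macrophages of 12 months (151 ± 37.9). Tumor regulatory and CD4 T cells followed at 102 to 127 CPM and overlapped. Below a gap came tumor CD8 T cells and the other spleen groups, from 30 down to 0.284 CPM, each overlapping the next. Of the 19 neighbouring pairs, 3 did not overlap for Cdkn1a, 2 for Cdkn1b, 2 for Trp53, 1 for Mdm2 and 0 for the other genes.

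Cdkn1b was highest in tumor CD4 T cells of 12 months (244 ± 56.5 CPM) and lowest in tumor macrophages of 12 months (38.3 ± 6.34 CPM). Trp53 ran from 234 ± 27 CPM in spleen regulatory T cells of 3 months to 58.6 ± 3.23 CPM in tumor dendritic cells of 12 months. Mdm2 ran from 184 ± 35.6 CPM in tumor macrophages of 12 months to 63.6 ± 17.4 CPM in spleen CD4 T cells of 3 months. The level of Cdkn2c was highest in tumor CD4 T cells of 12 months (27.2 CPM) and that of Cdkn2d in spleen macrophages of 12 months (152 CPM).

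Levels of different genes were compared per kilobase of exon (CPM per kb). Cdkn1a led all 8 genes in tumor macrophages, at 174 CPM per kb, and in tumor dendritic cells, at 189 CPM per kb. In spleen dendritic cells it was the seventh of 8, at 5.67 CPM per kb, and Trp53 led at 25.3. Cdkn2d led in spleen macrophages (86.1 CPM per kb), in spleen CD4 T cells (90.5), and in both tissues of regulatory T cells (53.3 in tumor, 63 in spleen) and of CD8 T cells (54.6 in tumor, 73 in spleen). Tumor CD4 T cells had Cdkn1b first, at 49.6 CPM per kb, just above Cdkn2d at 48.2. Cdkn2a was last in every cell type and tissue. The exon lengths behind these values, 1172 bases for Cdkn2a to 5083 for Mdm2, count every annotated exon and not the transcripts a cell uses.

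Genes whose 20 group means were most like each member were named by Pearson r of log2(CPM + 1) among 9510 genes with a group mean of at least 20 CPM. For Cdkn1a these were Ccrl2 (r = 0.964) and Ccr1 (0.961), both receptors of the chemokine family, and Cpd (0.959), carboxypeptidase D. For Trp53 they were Cep68 (0.955), Srsf6 (0.954), a splicing factor, and Luc7l (0.953). Cdkn1b was most like Rab22a (0.957), Mdm2 most like Afg3l2 (0.905), Cdkn2d most like Tuba4a (0.906) and Cdkn2c most like Uhrf1bp1l (0.846). For Cdkn2b and Cdkn2a the closest were Maged1 and Itpr1, at 0.831 each (among 9511 genes), over few counts.

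The wider pathway was read from lists of 28 p53 targets, 16 genes of the CDK and RB axis, 17 regulators of the members, 26 genes of the senescence secretome and 25 proliferation genes, none of which holds a member. By age, list genes passed the test in 2 of the 10 comparisons, spleen CD4 and spleen CD8 T cells. In spleen CD4 T cells 3 of 23 tested p53 targets rose and 0 fell, where 1.96% of all genes rose, and the list's median log2 fold change was 0.22 against 0 over all genes. Pmaip1, which encodes the pro-apoptotic protein Noxa, averaged 12.5 ± 2.79 CPM at 12 months (n = 4) and 1.15 ± 1.23 CPM at 3 months (n = 3), a log2 difference of 3.26 (adjusted p = 0.0152). Trp53inp1, a p53-induced stress protein, averaged 379 ± 42.4 CPM in older and 169 ± 86.5 CPM in younger mice (log2 fold change 1.02, adjusted p = 0.0305), and the kinase gene Plk3 34.5 ± 12.9 CPM in older and 10.4 ± 6.04 CPM in younger mice (1.57, adjusted p = 0.037). The interaction of age and tissue passed for Pmaip1 in CD4 T cells (log2 -3.13, adjusted p = 0.00523), where 0.668% of all tested genes were called. It uses the same 3 spleen libraries of 3 months, 2 of them ribosomal-rich, and its value under the alternatives is not given here. Over all genes the interaction calls ran from 24 to 640 with single libraries left out, against 98 with all libraries.

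In the same cells 1 of 14 CDK and RB genes rose, Ccne2 (cyclin E2, 14 ± 3.41 CPM at 12 months and 3.4 ± 1.49 CPM at 3 months, adjusted p = 0.0358). Of 9 secretome genes 2 rose, Spp1 (osteopontin, 39.9 ± 6.57 CPM in older and 0.473 ± 0.654 CPM in younger mice, log2 fold change 6.23, adjusted p = 1.56e-05) and the chemokine Ccl4 (12.3 ± 7.21 CPM in older and 1.56 ± 1.66 CPM in younger mice, adjusted p = 0.0322). Of 23 proliferation genes 1 rose, Mcm6, a subunit of the replicative helicase (187 ± 26.9 CPM in older and 90.5 ± 22.8 CPM in younger mice, adjusted p = 0.0227). No regulator passed with all libraries, and 2 did without replicate 3 of 3 months. Without both ribosomal-rich libraries the counts were 0 p53 targets, 0 CDK and RB genes, 1 secretome gene and 0 proliferation genes. With all 4 CD4 groups in 1 fit no secretome gene was called, and with the replicate block 0 CDK and RB genes and 4 secretome genes were. Without the low-count filter 2 CDK and RB genes and 4 secretome genes were called, and with the DESeq2 Wald test 3 secretome genes. The CDK and RB and the proliferation call were also lost without any 1 library other than replicate 3 of 3 months, without which 3 CDK and RB genes were called. The secretome count was 1 without replicate 1, 3 or 4 of 12 months or replicate 4 of 3 months, and 3 without replicate 2 of 12 months or replicate 3 of 3 months. Leaving out single libraries moved the p53 target count between 0 and 5. It was 0 without replicate 2 or 4 of 12 months or replicate 4 of 3 months, and 1 without replicate 1 or 3 of 12 months or replicate 1 of 3 months. It was 5 without replicate 3 of 3 months, which left only the ribosomal-rich libraries of that age. At that setting 2400 of all genes were called, against 460 with all libraries, and each list's count there is to be read against this. Foxp3 rose in the same comparison (71.5 ± 13.4 CPM in older and 32.5 ± 11.8 CPM in younger mice, adjusted p = 0.0469), and the macrophage marker sum was 9.804 to 24.06 CPM in older and 6.708 to 47.92 CPM in younger mice. The part of regulatory T cells or macrophages in these calls was not tested.

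Spleen CD8 T cells had 1 of 14 CDK and RB genes higher at 12 months, where 0.925% of all genes rose. It was Cdk6, a kinase that INK4 proteins bind (292 ± 25.2 CPM in older and 208 ± 12.7 CPM in younger mice, n = 4 each, log2 fold change 0.50, adjusted p = 0.0144). The call was lost without replicate 4 of either age and with all 4 CD8 groups in 1 fit. Of 6 secretome genes 1 rose, Ccl4 (33.7 ± 11.4 CPM at 12 months and 13 ± 3.04 CPM at 3 months, log2 fold change 1.39, adjusted p = 0.00546), and this call was lost without replicate 1 of 12 months and with all 4 groups in 1 fit. The secretome count there was 4 without the low-count filter and 2 with the DESeq2 Wald test. No p53 target passed there. The most abundant ones were Trp53inp1 (276 ± 23.9 CPM in older and 284 ± 22.9 CPM in younger mice) and the antiproliferative gene Btg2 (264 ± 29.3 CPM in older and 234 ± 38.5 CPM in younger mice).

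In the other 8 comparisons 0 of 736 list values passed with edgeR. With the DESeq2 Wald test 5 passed, all in dendritic cells, and the share of all genes called by that test is not given here. In edgeR 69 of the 736 had an unadjusted p under 0.05. Over all 10 age comparisons together, 7.15% of all tested gene values had such a p. Spleen macrophages had 4 such p53 targets of 24 and 10 such proliferation genes of 24, where 6.07% of all tested genes reached that p, and the proliferation list had a median log2 fold change of 0.75 against 0.01 over all genes. In the same comparison 5 of 9 tested neutrophil markers had such a p and 0 were called, with a median log2 fold change of 1.64, and their sum was 9558 to 38950 CPM in older mice, against 3869 to 13510 CPM in younger mice. The log2 fold change was -0.80 for C1qb (adjusted p = 0.698) and -0.68 for C1qa (adjusted p = 0.761), both macrophage markers. The part of neutrophils in the list values was not tested. Btg2 was the most abundant p53 target of spleen macrophages (1310 ± 289 CPM at 12 months and 1290 ± 140 CPM at 3 months), tumor macrophages (693 ± 363 CPM in older and 675 ± 210 CPM in younger mice) and tumor dendritic cells (1220 ± 406 CPM in older and 1060 ± 255 CPM in younger mice). In these 3 sorts the ages differed by less than the SD within an age. The cyclin gene Ccnd2 averaged 1100 ± 154 CPM in older and 1140 ± 76.6 CPM in younger mice in tumor regulatory T cells. In spleen regulatory T cells it averaged 1110 ± 110 CPM in older and 1080 ± 79.2 CPM in younger mice.

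**Figure D5:**
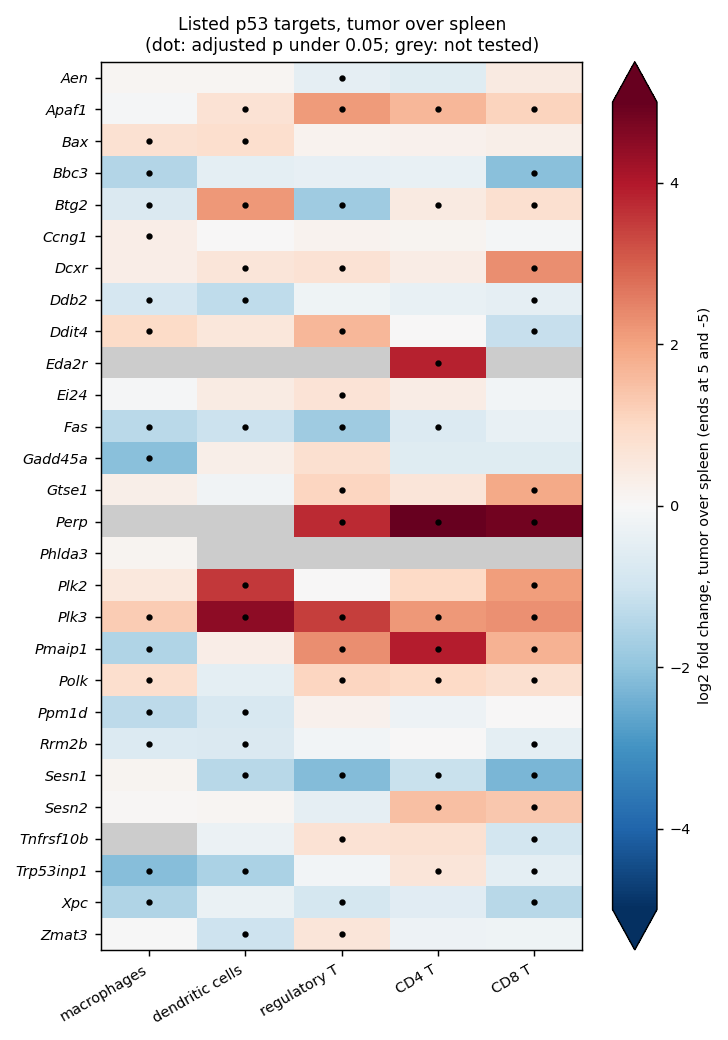
Log2 fold change of tumor over spleen for the 28 listed p53 targets (rows) in the 5 cell types (columns), in colour from blue (lower in tumor) to red (higher), with a dot where the adjusted p was under 0.05 and grey where a gene was not tested. Plk3 has a dot on red in all 5 types, and Sesn1 a dot on blue in 4.

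Between the tissues the p53 targets did not move as 1 group. In tumor, 5 rose and 10 fell of 25 tested in macrophages, 6 and 7 of 25 in dendritic cells, 11 and 5 of 26 in regulatory T cells, 9 and 2 of 27 in CD4 T cells, and 10 and 8 of 26 in CD8 T cells. Of all tested genes, 23.9% rose and 27.8% fell in macrophages, 24.4% and 22.7% in dendritic cells, 25.9% and 27.6% in regulatory T cells, 16% and 11.2% in CD4 T cells, and 22.5% and 19.6% in CD8 T cells, and each list's counts are to be read against these shares. The median log2 fold change of the list lay between -0.05 and 0.36. Plk3 rose in all 5 types, with 65.3 ± 19.8 CPM in tumor and 3.51 ± 2.74 CPM in spleen in dendritic cells. Sesn1, a sestrin that restrains growth signalling, fell in 4 types, with 78.5 ± 27 CPM in tumor and 413 ± 53.4 CPM in spleen in regulatory T cells. Pmaip1 rose in the 3 T cell types and fell in macrophages (65.7 ± 22.4 CPM in tumor, 219 ± 56 CPM in spleen), as the heat map of listed targets shows.

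Of 15 tested genes of the CDK and RB axis, which the inhibitors act on, 9 rose and 1 fell in tumor regulatory T cells, and 9 and 0 in CD8 T cells. The counts were 5 and 1 in CD4 T cells, 6 and 3 in macrophages, and 2 and 5 in dendritic cells. Of all tested genes, 25.9% rose and 27.6% fell in regulatory T cells, and 22.5% and 19.6% in CD8 T cells. These shares were 16% and 11.2% in CD4 T cells, 23.9% and 27.8% in macrophages, and 24.4% and 22.7% in dendritic cells. Cdk6 rose in all 5 types, with 779 ± 83 CPM in tumor and 234 ± 51.1 CPM in spleen in regulatory T cells. In dendritic cells its CPM means were close, at 215 ± 40 CPM in tumor and 205 ± 22.3 CPM in spleen. The fitted log2 fold change of 0.40 there (adjusted p = 0.0208) depends on the TMM scaling. Ccnd1 (cyclin D1) averaged 119 ± 39.2 CPM in tumor macrophages and 8.44 ± 4.63 CPM in spleen macrophages. Of the 16 tested regulators, 3 rose and 6 fell in macrophages, 2 and 7 in dendritic cells, 2 and 6 in regulatory T cells, 1 and 4 in CD4 T cells and 5 and 7 in CD8 T cells. Foxo1, a transcription factor that activates Cdkn1b, fell in all 5, with 160 ± 32 CPM in tumor CD8 T cells and 367 ± 50.9 CPM in spleen CD8 T cells. Mdm4, the partner of Mdm2 in p53 control, fell in 4 types, among them dendritic cells (64.7 ± 4.71 CPM in tumor, 145 ± 12.4 CPM in spleen). These list genes were singled out after their tissue values were seen.

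Secretome genes, the cytokines, chemokines and proteases that senescent cells are known to secrete and that activated immune cells also make, rose more often than they fell in each type. In dendritic cells, where 24.4% of all genes rose, 20 rose and 2 fell of 22 tested, in macrophages (23.9% of all genes) 15 and 1 of 22, in regulatory T cells 7 and 2 of 10, in CD4 T cells 8 and 1 of 13, and in CD8 T cells 7 and 2 of 9. The proliferation genes rose as 24 of 24 tested in CD8 T cells and 18 of 24 in regulatory T cells, with 0 falling in either. Of 24 tested in each, 10 rose and 1 fell in macrophages, 7 rose and 1 fell in CD4 T cells, and 1 rose and 6 fell in dendritic cells. The shares of all genes that rose were 22.5% in CD8 T cells, 25.9% in regulatory T cells and 16% in CD4 T cells, as given with the p53 targets.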

How the data were processed

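Reads were aligned with STAR 2.5.3 to mm10 and counted with featureCounts, per the submitters' processing notes, and the authors deposited raw counts per gene symbol for 74 libraries. Neither the annotation release nor the strand setting is known from the labels. CPM were computed from each library's total count.

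Differences were tested with edgeR 4.0.16 (R 4.3.3, limma 3.58.1): filterByExpr, TMM scaling, robust quasi-likelihood fits and Benjamini-Hochberg adjustment over all genes tested, at a threshold of 0.05. Age was fitted within each cell type and tissue, and tissue and the interaction over the 4 groups of a cell type, and dendritic cell fits had a term for sex. The TMM-scaled group means were 0.777 to 1.27 times the CPM (median 0.992). The procedure was tested on simulated data. Counts of 3 set the limit for groups without a count. Limits cover counting error only, and the error of a mean set against a limit is not counted.

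The members and lists were chosen with earlier results of these data known. The text names all members, and up to 3 called genes per list and age comparison (otherwise up to 2 of highest level). It also names the 3 genes most like Cdkn1a and Trp53, and the gene most like each other member. List genes named for tissue, and Foxp3, were chosen after their values were seen. Alternatives were DESeq2 1.42.0 (Wald test, size factors), no filter, a replicate block, all 4 groups in 1 fit, age tags for titles, and leaving out doubted or single libraries. Same-numbered libraries deviated together in 1 of the age comparisons, tumor regulatory T cells (r of 0.168 to 0.462 over 4 pairs). Of 103 replicate pairs, 0 had identical counts.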

Additional observations from a re-analysis of the deposited data

Results flagged for a closer look

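Of 115 combinations of gene and group of 4 libraries whose values differed, 11 (9.57%) had a library far from the other 3. Chance gives about 1 in 20 for separate combinations, but these share libraries. That share does not apply at all to 7 of the 11, in which the other 3 libraries had 0 counts. There the library with a count stands apart by construction. For Cdkn2a the highest library stood apart in tumor dendritic cells of 3 months (replicate 4, 0.379 CPM from 3 counts), spleen macrophages of 12 months (replicate 4, 0.224 CPM from 1 count), spleen macrophages of 3 months (replicate 4, 0.15 CPM from 1 count) and tumor macrophages of 12 months (replicate 4, 0.319 CPM from 2 counts). It also stood apart in spleen CD4 T cells of 12 months (replicate 1, 1.09 CPM from 6 counts), tumor CD4 T cells of 12 months (replicate 2, 4.24 CPM from 7 counts) and spleen CD8 T cells of 3 months (replicate 3, 0.149 CPM from 1 count).

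For Cdkn2b, replicate 4 of tumor macrophages of 12 months had 12.6 CPM from 79 counts, against 1.12 to 1.3 CPM in the other 3. Replicate 3 of spleen macrophages of 12 months had 5.47 CPM from 18 counts, against 0.192 to 0.898 CPM. Replicate 4 of spleen CD8 T cells of 3 months had 0.733 CPM from 3 counts, against 0. For Cdkn2d, replicate 4 of tumor regulatory T cells of 3 months had 126 CPM, against 67.8 to 74.6 CPM in the other 3.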

How the results depend on the processing

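No called value changed sign under the alternatives. The number of members called by age in spleen CD4 T cells, 0, became 1 with all 4 groups in one fit (Cdkn2b), and ran from 0 to 2 when single libraries were left out. The 2 came without replicate 3 of 3 months, which left only the 2 ribosomal-rich libraries of that age (Cdkn2d, log2 fold change -0.53, adjusted p = 0.0257, and Mdm2, 0.82, adjusted p = 0.00801). In the other 9 age comparisons and the 5 interactions it stayed 0 throughout. Of tissue calls, 11 of 383 values with a library left out and 3 of 110 others missed the threshold, as given beside the results. With all libraries Cdkn1b and Mdm2 missed it in CD4 T cells, and each passed without 1 of 2 libraries: Cdkn1b without replicate 2 of tumor at 12 months (adjusted p = 0.021) or replicate 3 of spleen at 3 months (0.0121), Mdm2 without replicate 3 of spleen at 12 months (0.0475) or at 3 months (0.0168).

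With the replicate number as a block, 1 call was lost (Cdkn2b in dendritic cells, tumor over spleen, adjusted p = 0.0603) and no age call of a member appeared, also in tumor regulatory T cells, where the numbers paired the libraries. Over all genes the block moved the age calls in tumor CD4 T cells to 114, against 4 without it. Age calls over all genes ran from 79 (without both ribosomal-rich libraries) to 2400 (without replicate 3 of 3 months) in spleen CD4 T cells, where all libraries gave 460. In spleen dendritic cells they ran from 0 (all 4 groups in one fit) to 444 (without replicate 4 of 3 months), where all libraries gave 75. Counts under the filter left Cdkn2a untested in all 10 age comparisons. They left Cdkn2b untested in 6, those of spleen and tumor macrophages, spleen regulatory, CD4 and CD8 T cells, and tumor CD8 T cells.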
